A study of Mus musculus with 2 samples.

Results

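The Cfap genes are named for the cilia and flagella associated proteins, and they were taken here as every gene of the authors' EpA table whose symbol is Cfap followed by digits. The rule found 25 genes among the 17189 of that table, and all 25 were also listed in the table of each library. EpA cells are one kind of ependymal cell, the lining of the central canal in the spinal cord, and the series examined how their transcripts differ after a cord lesion. Single cells were sorted for the red reporter tdTomato from a 5 mm segment of cord of C57BL/6J mice at least 12 weeks old, and 3′ libraries were made on the 10x Genomics platform. All cells came from animals of genotype Troy-CreERT2+/- x Rosa26-tdTomato, so both groups carry the recombinase allele, driven as its name says from Troy, and the reporter. The uninjured group was the intact cord, and the injured group had received a dorsal funiculus incision 3 days earlier. Each group was 1 library, and the sources used here do not say how many animals it pooled. No difference below therefore has a replicate check, and none was tested. Bracketed ranges are 95% intervals that cover counting error only.

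Cfap proteins are structural and regulatory parts of the axoneme, the microtubule core of motile cilia. Some line the inside of the outer doublet microtubules, some tie the radial spokes and dynein motors to the doublets, and others build the projections of the central pair that help to set the beat. In the spinal cord the motile cilia of ependymal cells move cerebrospinal fluid, and transcription of the axonemal genes is driven by Foxj1 together with the RFX factors.

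The authors' EpA set held 555 uninjured and 1004 injured cells, with 7689179 and 25296289 unique molecular identifiers (UMIs, each a counted transcript molecule). Median depth was 11387 UMIs per uninjured and 20158.5 UMIs per injured cell, of which a median of 11.2% and 6.76% were mitochondrially encoded. Another 156 and 224 kept cells lay outside the EpA set. All 10 ependymal markers used were above 10 counts per 1000000 UMIs (CPM) in EpA cells of both libraries. Their summed levels were 15984 and 5189 CPM in EpA cells of the uninjured and injured library, and 1452 and 814 CPM outside. The 9 microglia or macrophage markers summed to 4.81 and 5.97 CPM in EpA cells, against 6617 and 2651 CPM outside. Between uninjured and injured EpA cells the summed markers of neurons went from 157 to 637 CPM, those of oligodendrocyte progenitors from 8.97 to 112 CPM and those of mural cells from 28.6 to 130 CPM, with 1 of 6, 2 of 6 and 1 of 7 listed markers above 10 CPM in injured cells and 0 at 0. The part of these markers and of depth in the Cfap differences was not tested. The libraries shared 18 barcode sequences, 4 of them in the uninjured and 3 in the injured EpA set, and 13 and 14 outside it. Without those barcodes, 23 of 25 Cfap genes were still 2-fold lower in injured EpA cells, with a median log2 ratio of −1.52, and 58.9% of injured EpA cells in place of 58.8% held at least 3 Cfap genes by the count used below.

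The 25 Cfap genes together were less abundant in injured than in uninjured EpA cells. They contributed 33986 of the uninjured and 44490 of the injured UMIs, which is 4420 CPM (4373 to 4467) and 1759 CPM (1742 to 1775). The injured level was 2.51-fold lower (2.48 to 2.55). By a 2-fold size rule, 23 of the 25 were lower after injury and 0 were higher. Among the 10527 genes of the EpA table with a mean of at least 5 CPM, a minimum that all 25 met, 11.3% were 2-fold lower and 11% were 2-fold higher. Taking injured over uninjured, the median log2 ratio was −1.53 for the Cfap genes and −0.03 for all of those genes. For 22 of the 23 the whole interval of the ratio lay past 2-fold, and Cfap58, with 103 and 131 UMIs, was the exception. The other 2 members, Cfap36 and Cfap97, had an injured level closer to the uninjured one.

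**Figure D1:**
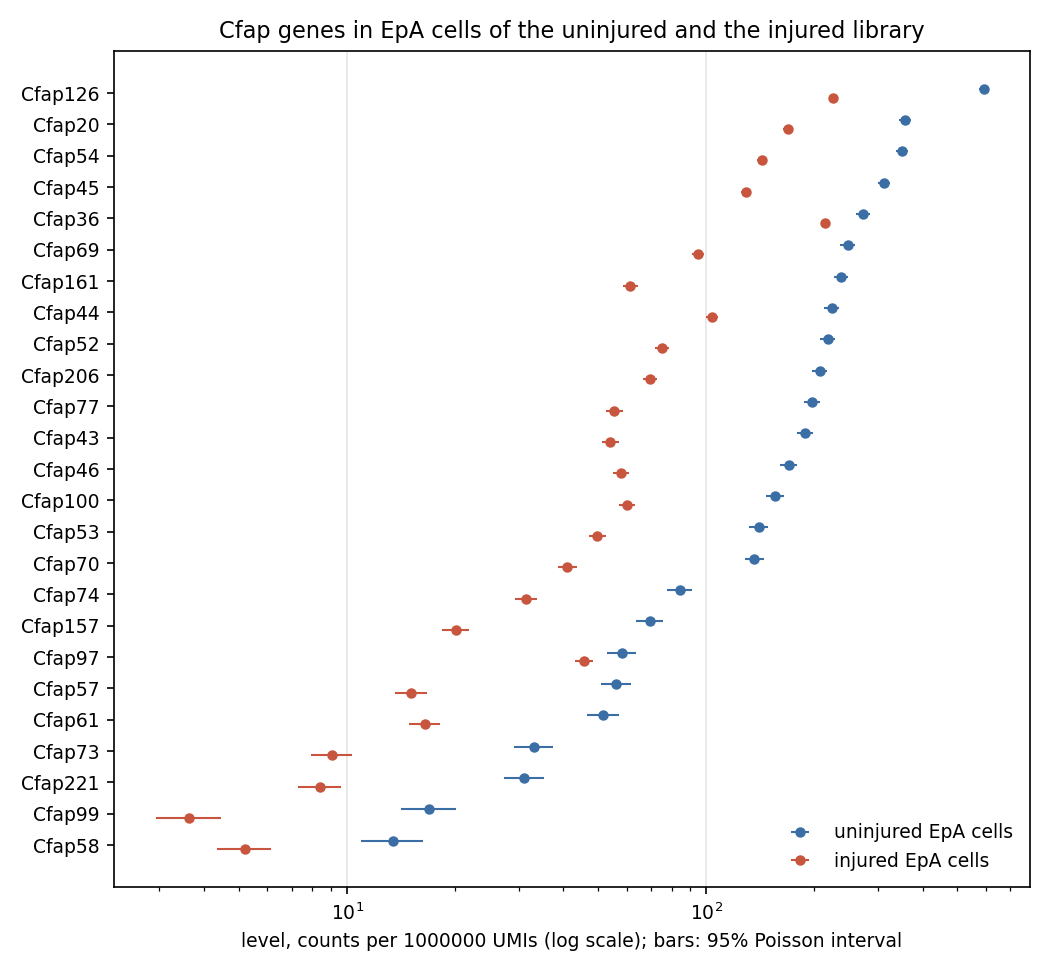
Level of each of the 25 Cfap genes (vertical axis, ordered by uninjured level) in EpA cells of the uninjured (blue) and the injured (red) library, in counts per 1000000 UMIs on a log axis. Points are sums over the cells of 1 library and bars are 95% Poisson intervals for counting error; each red point lies left of its blue point, least so for Cfap36 and Cfap97.

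Injured EpA cells with many UMIs had low Cfap levels, and the size of the difference moved with the weight given to deep cells. With every cell weighted alike, the summed level went from 4366 to 2564 CPM, 1.70-fold lower, and 8 of 25 members were 2-fold lower against 4.05% of all genes. With each cell thinned at random to 2000 UMIs the family was also 1.70-fold lower, and 11 members passed 2-fold against 6.7% of all genes. As plain UMIs per cell, without scaling, an uninjured EpA cell held 61.2 Cfap UMIs on average and an injured one 44.3. On that scale the median log2 ratio of all genes was 0.83 and that of the Cfap genes −0.67, and 5 members were 2-fold lower against 1.64% of all genes. Cfap36 and Cfap97 were higher per injured cell, at 5.40 against 3.79 UMIs and at 1.15 against 0.807 UMIs. All 25 members were below 0 on the log2 scale under the other 9 scalings and cell sets tried.

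Microtubule inner proteins, which bind inside the doublets, were the most abundant group, and all 7 were 2-fold lower. Their sums were 2054 and 765 CPM in the 2 libraries. Cfap126, also called Flattop, was the most abundant Cfap gene in both libraries, with 4549 and 5713 UMIs. Its uninjured level was 592 CPM (575 to 609) and its injured level 226 CPM (220 to 232), 2.62-fold lower (2.52 to 2.72). Cfap20, which sits at the inner junction that closes the doublet, was at 358 CPM (344 to 371) and 169 CPM (164 to 174), only 2.12-fold lower (2.02 to 2.23). Cfap45, a protein of the B-tubule lumen, was at 313 CPM (300.3 to 325) and 129 CPM (125 to 134), 2.42-fold lower (2.30 to 2.55). At the other end of the group stood Cfap161, at 237 CPM (227 to 248) and 61.5 CPM (58.5 to 64.6), 3.86-fold lower (3.61 to 4.13). Cfap52, a partner of Cfap45 in the B tubule, was at 218 and 75.3 CPM, 2.89-fold lower (2.71 to 3.09). Cfap77 was at 197 and 55.5 CPM, and Cfap53 at 140 and 49.7 CPM. A 3′ library counts a molecule once whatever its length, so these levels compare molecules and not sequence.

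The 7 genes for parts of the radial spokes, the dynein tether and dynein regulators were all 2-fold lower, from a summed 915 to 328 CPM, with a median log2 ratio of −1.65. Cfap44, a tether protein of inner arm dynein f, was at 223 CPM (213 to 234) in the uninjured library and 104 CPM (99.6 to 108) in the other, 2.16-fold lower (2.03 to 2.29). Its tether partner Cfap43 was at 188 CPM (178 to 198) and 54 CPM (51.2 to 57.0), 3.48-fold lower (3.23 to 3.75). Their 2 intervals do not overlap, so the partners differed unequally between these libraries. Cfap43 shares its strand with part of the coding gene Itprip in the annotation, and the sources used here do not say how such reads were counted. Cfap206, found at the base of a radial spoke, was at 207 and 69.7 CPM, 2.97-fold lower (2.77 to 3.18). Cfap57, an inner dynein regulator, was among the 4 smallest ratios, at 56.2 and 15.1 CPM, 3.73-fold lower (3.24 to 4.29). Cfap61, a spoke-associated protein, was at 51.6 and 16.4 CPM. Of the pair that regulates dynein f from the doublet, Cfap100 was at 156 and 60.2 CPM and Cfap73 at 33.0 and 9.05 CPM.

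The 7 central apparatus genes were all 2-fold lower as well, from 1036 to 380 CPM, with a median log2 ratio of −1.55. Cfap54 was the most abundant of them, at 351 CPM (338 to 365) and 143 CPM (138 to 148), 2.46-fold lower (2.34 to 2.58). Cfap69 was at 247 CPM (236 to 259) and 94.9 CPM (91.1 to 98.7), 2.61-fold lower (2.45 to 2.77). Cfap46 and Cfap74, which share a central pair projection with Cfap54, were at 169 and 57.8 CPM and at 84.3 and 31.4 CPM. Cfap221, of the same projection, was at 31.1 and 8.38 CPM, 3.71-fold lower (3.07 to 4.48). Cfap70 was at 136 and 41 CPM. The smallest ratio of all members was that of Cfap99, with 130 and 92 UMIs, at 16.9 CPM (14.1 to 20.1) and 3.64 CPM (2.93 to 4.46), 4.65-fold lower (3.53 to 6.14).

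The 4 members not placed in one of these structures were divided. Cfap36, which binds the small GTPase Arl3, had an uninjured level of 273 CPM (262 to 285) and an injured level of 214 CPM (208 to 220), a ratio of 0.783 (0.745 to 0.824). It went from the fifth most abundant Cfap gene to the second. Cfap97 was at 58.3 CPM (53.0 to 63.9) and 45.7 CPM (43.1 to 48.5), a ratio of 0.785 (0.703 to 0.877), and it overlaps the coding gene Snx25 on the other strand. The 2 ratios could not be told apart. Cfap157 was at 69.6 and 20 CPM, 3.47-fold lower (3.07 to 3.93), and Cfap58 at 13.4 and 5.18 CPM, 2.59-fold lower (1.98 to 3.37). Because Cfap20, Cfap36 and Cfap97 had the 3 largest ratios of all members and also stood apart in other cells, they are described together below, a grouping made after their values were seen. The 3 made up 15.6% of uninjured and 24.4% of injured Cfap UMIs in EpA cells, and the other 22 were 2.80-fold lower (2.76 to 2.85) as a sum.

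Other genes of the axoneme stood beside the Cfap genes. Of 65 genes in a list of dyneins, radial spoke, central pair, doublet and docking proteins without Cfap names, 61 were 2-fold lower and 0 higher, with a median log2 ratio of −1.48. Their sum went from 14860 to 5369 CPM, 2.77-fold lower (2.75 to 2.79). The 4 others, named after their values were seen, were Ccdc114 (log2 ratio −0.94), Ropn1l (−0.84), Efhc2 (−0.69) and Tekt2 (−0.35). Of 9 transcription factors of ciliated cells, 7 were measured and 3 were 2-fold lower. These 3, also named after the fact, were Trp73 (−1.62), Myb (−1.57) and Rfx1 (−1.05). Foxj1 was at 421 and 233 CPM, Rfx2 at 44.1 and 23.0 CPM, and Rfx3 at 95.2 and 55.5 CPM, each less than 2-fold lower. Rfx4, the only measured factor with a higher injured level, was at 95.6 and 125 CPM, a ratio of 1.31 (1.21 to 1.42).

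Build GRCm38, the assembly that mm10 names, carries the 25 members in GENCODE M21: they are protein-coding genes on 13 chromosomes. Cfap126 spans chr1:171113918-171126967, Cfap20 spans chr8:95420249-95434869, Cfap45 spans chr1:172520801-172545870 and Cfap36 spans chr11:29221532-29247409. RefSeq promoters, 250 bases before to 50 bases after a start site, were given for 20 of the 25 members. Since most members were lower together, those promoters were searched on both strands for GTTNCC and its special case GTTGCC, an arm of the X-box that RFX factors bind, and for GTAAACA, a core bound by forkhead factors such as Foxj1. GTTNCC was found in 14 of the 20 members (70%), against 48.8% of 27025 genes with a promoter in the table. GTTGCC was found in 7 (35%) against 14.1%, and GTAAACA in 2 (10%) against 4.05%. Among 54 other axoneme genes with a promoter the shares were 79.6%, 44.4% and 5.56%. An inverted pair of GTTNCC arms at most 3 bases apart was found in 0 of the 20 members and in 0.936% of genes. A match is a description of the letters only. Printed here are the promoters of the 4 most abundant members that have one, which include Cfap20 and Cfap36 with their smaller differences. They are RefSeq sequences of build GRCm38.p6, 5′ to 3′ on the gene's strand, with matches to any of the 3 motifs on either strand in capitals:
Cfap126, chr1:171113736-171114035, plus strand: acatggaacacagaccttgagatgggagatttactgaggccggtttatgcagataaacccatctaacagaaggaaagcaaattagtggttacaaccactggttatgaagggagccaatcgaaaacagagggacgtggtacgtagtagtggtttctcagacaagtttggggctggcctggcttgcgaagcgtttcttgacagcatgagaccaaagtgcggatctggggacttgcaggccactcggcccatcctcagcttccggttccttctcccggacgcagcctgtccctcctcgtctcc
Cfap20, chr8:95434820-95435119, minus strand: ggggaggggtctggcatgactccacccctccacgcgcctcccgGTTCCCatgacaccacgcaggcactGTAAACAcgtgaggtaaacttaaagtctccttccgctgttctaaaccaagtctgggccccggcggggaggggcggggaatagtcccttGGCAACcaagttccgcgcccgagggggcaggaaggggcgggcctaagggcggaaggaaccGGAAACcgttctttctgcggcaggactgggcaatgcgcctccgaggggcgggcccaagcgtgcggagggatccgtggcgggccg
Cfap45, chr1:172520880-172521179, plus strand: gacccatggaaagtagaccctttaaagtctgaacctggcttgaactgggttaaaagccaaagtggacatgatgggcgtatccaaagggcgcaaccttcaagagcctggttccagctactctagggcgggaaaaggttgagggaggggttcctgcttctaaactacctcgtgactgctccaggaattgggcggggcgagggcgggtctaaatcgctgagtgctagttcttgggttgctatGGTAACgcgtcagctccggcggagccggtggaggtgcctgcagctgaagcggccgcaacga
Cfap36, chr11:29247223-29247522, minus strand: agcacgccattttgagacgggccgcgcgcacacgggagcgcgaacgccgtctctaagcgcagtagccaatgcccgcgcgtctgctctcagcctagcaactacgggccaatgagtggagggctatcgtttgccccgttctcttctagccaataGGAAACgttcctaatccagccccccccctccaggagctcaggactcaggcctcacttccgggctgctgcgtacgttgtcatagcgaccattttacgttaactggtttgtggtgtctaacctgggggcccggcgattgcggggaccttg

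The Cfap126 window, the nearest to the annotated start of 3 listed for that gene, has no match. Another window listed for Cfap126 holds a GTTNCC arm, so the gene is among the 14 members counted with one. The start sites of the printed windows lie 68 (Cfap126), 0 (Cfap20), 329 (Cfap45) and 137 bases (Cfap36) from the annotated gene start. The Cfap20 window holds 3 arms and 1 forkhead core, and the Cfap45 and Cfap36 windows hold 1 arm each.

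Injured EpA cells varied widely in Cfap content, and many held as much as uninjured cells. To describe this without using the Cfap genes, cells thinned to 2000 UMIs were divided by the summed share of the 65 other axoneme genes, at 0.865% of UMIs, the 5th percentile of uninjured EpA cells. Of 992 injured cells deep enough, 470 (47.4%, 44.2 to 50.5) lay in the uninjured range and 522 lay below it, and 81 were within 20% of the dividing value. The median cell had 11671 UMIs before thinning in the first set and 29520 in the second. In the 470 cells the Cfap genes stood at 4274 CPM (4225 to 4323), against 4479 CPM (4431 to 4528) in the 519 uninjured cells of the same range. In the 522 cells they stood at 818 CPM (805 to 831), 5.48-fold lower (5.37 to 5.58). As plain UMIs per cell the difference was smaller, because cells below the range were deeper. The mean was 62.8 Cfap UMIs in uninjured cells in range, 62.5 in injured cells in range and 28.8 in injured cells below it. Cells were chosen on genes of the same organelle, so part of this separation follows from the choice.

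Within the range, 0 of 25 members differed 2-fold from uninjured cells, where 0.647% of all genes were 2-fold lower and 1.45% higher, and the median log2 ratio was −0.13. The ratios ran from −0.67 for Cfap99 to 0.24 for Cfap58, the 2 sparsest members. In range, Cfap126 was at 600 CPM in uninjured cells against 549 CPM in injured cells, and Cfap54 at 356 against 405 CPM. Below the range, 23 of 25 were 2-fold lower, against 17.8% of all genes, with a median log2 ratio of −2.98. Cfap126 was at 105 CPM there and Cfap54 at 45 CPM. The lowest ratios below the range were −4.31 for Cfap161, −4.30 for Cfap99 and −4.29 for Cfap57. Cfap36 and Cfap97 were again the exceptions, at 177 and 40 CPM below the range, with log2 ratios of −0.65 and −0.56, and Cfap20 came next at −1.72.

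**Figure D2:**
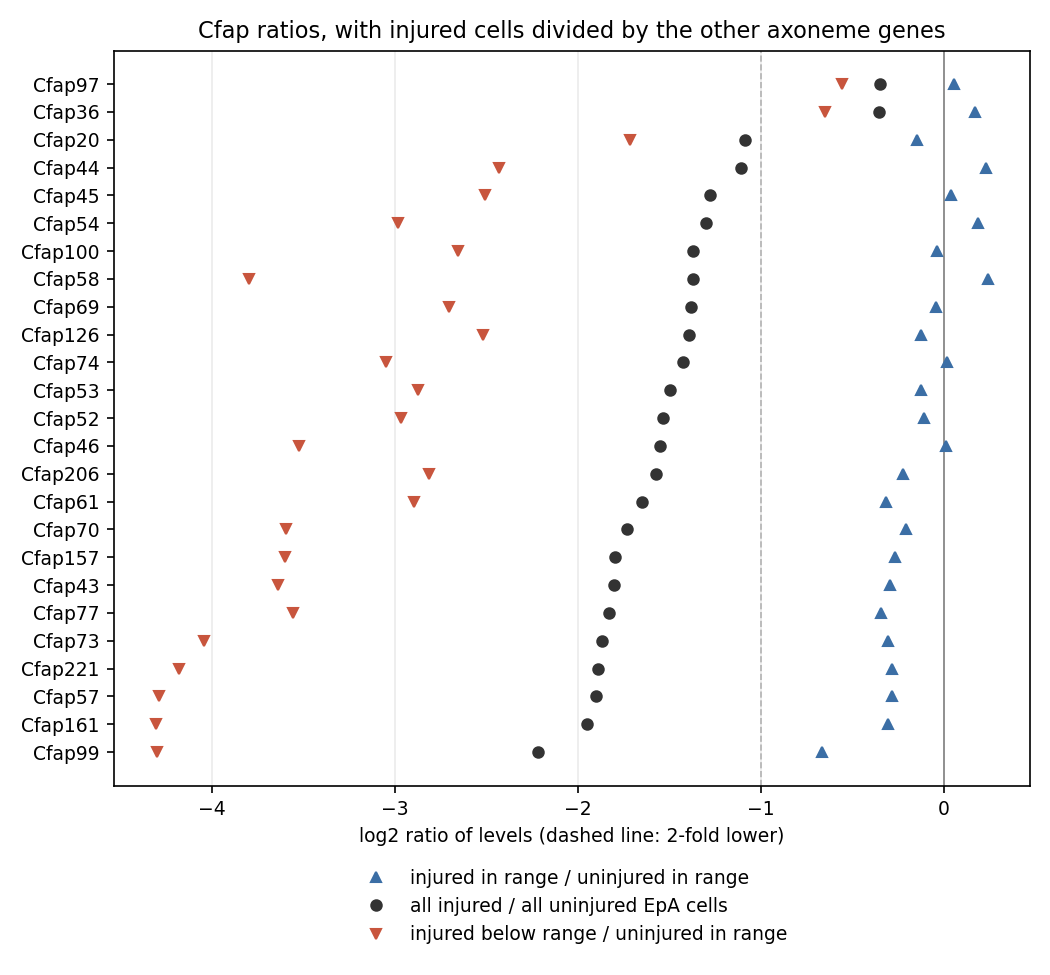
Log2 ratio of each Cfap gene (vertical axis, ordered by the ratio over all EpA cells) for all injured over all uninjured EpA cells (black circles), injured cells in the uninjured range of the other axoneme genes (blue triangles) and injured cells below it (red triangles), the last 2 over uninjured cells in range. In-range ratios lie between −0.67 and 0.24, and below the range all members but Cfap36 and Cfap97 lie past the dashed line at 2-fold lower.

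In injured cells below the range, the central apparatus genes were furthest from the uninjured level. Their sum was 123 CPM against 1053 CPM in uninjured cells in range, 8.55-fold lower (8.16 to 8.97). Spoke, tether and dynein regulator genes were 7.48-fold lower (7.13 to 7.85) and microtubule inner proteins 5.99-fold lower (5.81 to 6.17), the latter with Cfap20 included. The other axoneme genes, on which the cells were divided, were 7.75-fold lower. These folds are of CPM, between cells with a median of 29520 UMIs below the range and 11391 UMIs in the uninjured set. Over all injured EpA cells, central apparatus genes were 2.73-fold, spoke, tether and dynein regulator genes 2.79-fold and microtubule inner proteins 2.68-fold lower. Foxj1 was at 534 CPM in the injured cells in range and 120 CPM below it. Dividing cells, taken as those with UMIs of at least 2 of 10 core mitosis genes at 2000 UMIs, numbered 122 of 992 injured and 3 of 547 uninjured cells. In the 122 the Cfap genes stood at 569 CPM (551 to 588), of which 56.9% were Cfap20, Cfap36 and Cfap97, and Cfap126 was at 46.9 CPM. Injured cells below the range that were not dividing, 401 in number and chosen for few axoneme transcripts, stood at 968 CPM (950 to 986). Median depth was 52066.5 UMIs in the dividing and 25841 UMIs in the non-dividing set. Per cell the order was not the same, with a mean of 31.4 Cfap UMIs in the dividing and 28.3 in the non-dividing set. Without the dividing cells of both libraries, 18 of 25 members were 2-fold lower in injured EpA cells, against 7.68% of all genes.

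Counted cell by cell at 2000 UMIs, an uninjured EpA cell had UMIs of a median of 7 different Cfap genes (middle 50% of cells 5 to 8), and an injured one of 3.5 (1 to 7). At least 3 were seen in 98.5% of 547 uninjured cells (97.1 to 99.4) and in 58.8% of 992 injured cells (55.6 to 61.9). No Cfap gene was seen in 1 uninjured cell and in 131 injured cells (13.2%, 11.2 to 15.5). Thinning left out 8 and 12 EpA cells with fewer UMIs. Without thinning the medians were 18 and 14 genes, at unequal depths. The injured cells in range had a median of 7, like the uninjured cells, and those below it had a median of 1.

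Single members differed in how far the share of cells with a UMI shifted at 2000 UMIs. Cfap126 was seen in 66% of uninjured (61.9 to 70.0) and 43.2% of injured EpA cells (40.1 to 46.4), in 66.4% of injured cells in range and in 22.4% below it. Cfap54 was seen in 52.1% and 31.4%, and in 53.4% and 11.5% of the injured cells in and below the range. Cfap161 was seen in 36.9% and 16.9%, and in 30.9% and 4.41% of those sets. Cfap36 was seen in 42.2% (38.1 to 46.5) and 36% (33.0 to 39.1), in 46.6% in range and 26.4% below. Cfap97 was seen in 11.2% and 9.07%. For these last 2 genes the intervals of the libraries overlap, and no difference was tested.

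**Figure D3:**
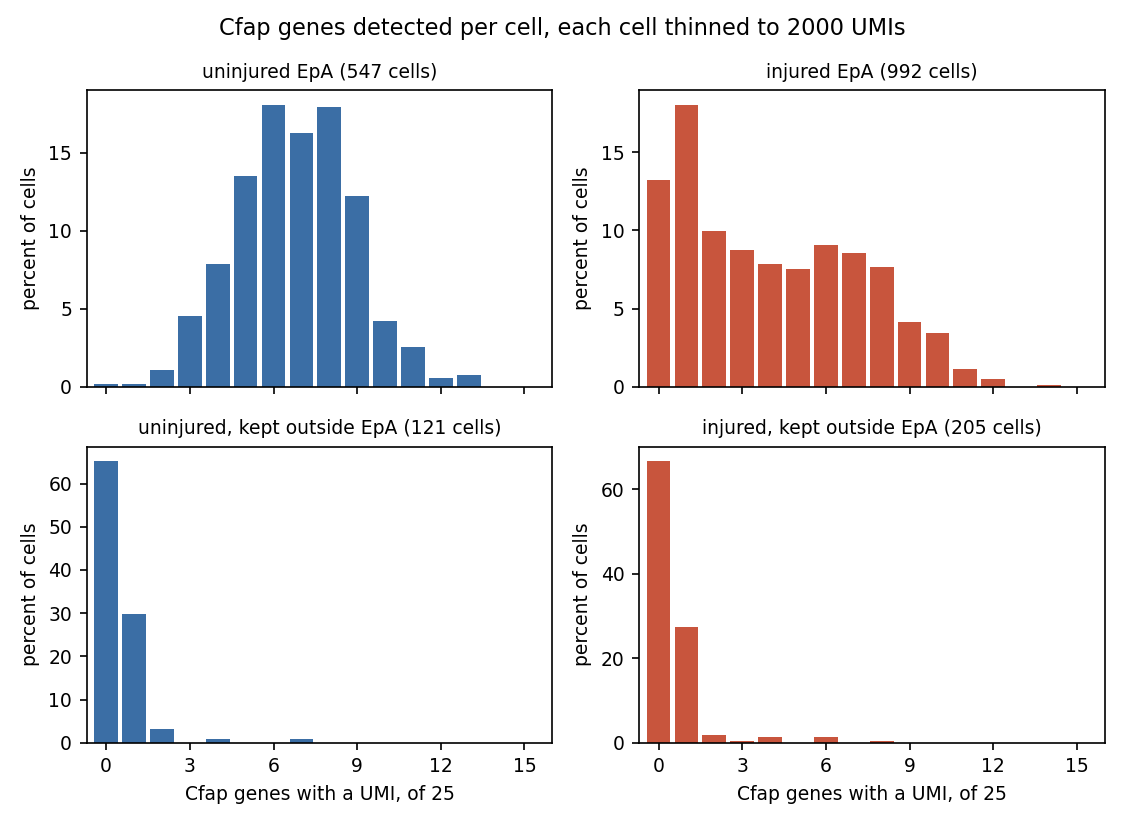
Number of different Cfap genes with a UMI in a cell (horizontal axis) against the percent of cells (vertical axis, scaled to each panel), with each cell thinned to 2000 UMIs, for EpA cells (top) and kept cells outside EpA (bottom) of each library. Uninjured EpA cells form 1 peak around a median of 7, injured EpA cells spread from 0 to 14, and most cells outside EpA have 0 or 1.

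Detection of different Cfap genes was close to independent among uninjured EpA cells and joined among injured ones. If genes were detected independently, the variance of the number seen per cell would equal the sum of the single-gene variances. The observed variance was 1.04 times that sum in uninjured cells and 3.26 times in injured cells. It was 1.23 times in injured cells in range and 1.90 times below it. For the 45 pairs among the 10 most abundant members, the number of cells with both genes was compared with the product of the 2 shares. The median ratio was 1.005 in uninjured cells, with 24 of 45 pairs above 1, and 1.41 in injured cells, with 45 of 45 above 1. It was 1.01 in injured cells in range and 1.69 below it. Such a ratio can be larger where genes are rarely seen. The median correlation of the detection of both genes over cells was 0.154 in all injured cells, 0.012 in range and 0.077 below it. By that measure, detection was less joined below the range than over all injured cells.

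Cfap52 and Cfap206 had the highest ratio in injured cells, with 59 of 992 cells holding both against 32.8 from the product, a ratio of 1.80. In uninjured cells the same pair was seen in 60 of 547 cells against 64.2, a ratio of 0.935. Cfap45 and Cfap52, the B-tubule partners, had ratios of 1.78 in injured and 1.10 in uninjured cells. The 2 lowest ratios in injured cells were those of Cfap36, at 1.10 with Cfap20 and 1.10 with Cfap126, while Cfap36 with Cfap161 was at 1.47. Pairs and cells share library and depth, and these values carry no test. Pairs of other genes were not counted in this way, so ratios above 1 are not shown to be particular to Cfap genes.

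**Figure D4:**
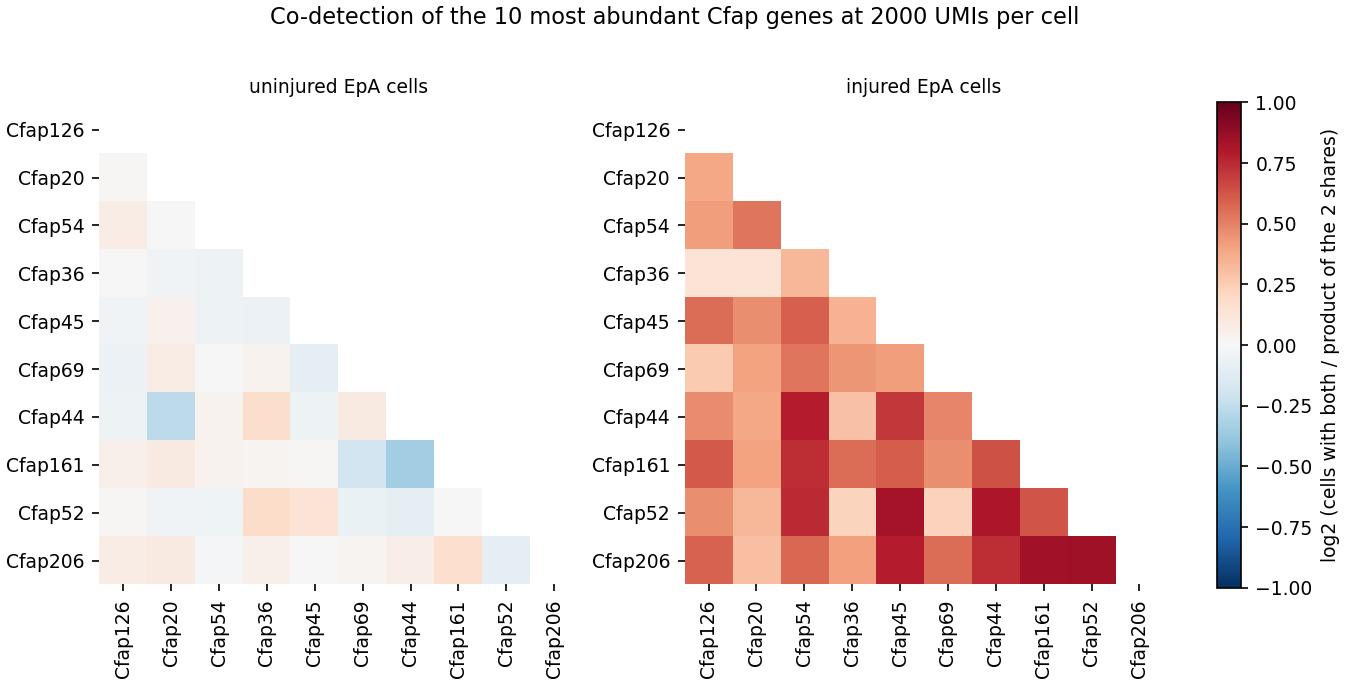
Co-detection of the 10 most abundant Cfap genes in EpA cells of each library at 2000 UMIs per cell, as the log2 ratio of cells holding both genes to the product of the single shares (red above 0, blue below 0). The 45 injured pairs are all red, palest for Cfap36 with Cfap20 and with Cfap126, and the uninjured pairs lie near white.

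Across injured EpA cells the summed Cfap UMIs at 2000 UMIs followed the summed other axoneme genes, with a Pearson correlation of 0.83 over 992 cells. Over 547 uninjured cells it was 0.35. Of single genes at 50 CPM or more, the 6 with the highest correlation in injured cells were Mt3, a metallothionein (0.72), Nnat (0.68), 1500015O10Rik (0.66), Tmem212 (0.65), Fam183b (0.65) and the radial spoke gene Rsph1 (0.63). Among those with the lowest were Tmsb4x, a thymosin (−0.70), the ribosomal protein genes Rpsa (−0.68) and Rps2 (−0.64), the galectin gene Lgals1 (−0.67) and the intermediate filament gene Vim (−0.66). Foxj1 was at 0.37 and Rfx3, with a level of 55.5 CPM, at 0.12. Rfx2, under the 50 CPM minimum at 23.0 CPM, was at 0.17. Sparse counts at 2000 UMIs limit the values of such genes. In uninjured cells no gene passed 0.20, and such weak values in sparse counts are no finding. All cells of a correlation share a library, and low-Cfap cells were the deeper ones before thinning.

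Clustering of all kept cells without the Cfap genes, though with the other axoneme genes, gave 12 clusters. Ependymal-like clusters 0, 1 and 4 held EpA cells of both libraries, with Cfap levels of 4518, 4394 and 4463 CPM in uninjured and 4430, 4483 and 4500 CPM in injured cells. The injured cells of these clusters numbered 184, 159 and 72. Cluster 5, led by Gfap, C3 and Vcan, was left unnamed: all 10 ependymal markers were above 100 CPM, but its top 10 genes by fold held none of them and 1 marker of oligodendrocyte progenitors, Vcan. It held 246 injured EpA cells at 2066 CPM (2028 to 2104). Cluster 11, led by Crym, Tagln and Thbs2, was unnamed for the same reason, with 6 ependymal markers above 100 CPM and the progenitor marker Olig1 in its top 10, and held 222 at 750 CPM (730 to 769). Cluster 9, led by S100a8, S100a9 and Ngp with the mitosis genes Prc1, Pbk and Cdc20, was also unnamed and held 119 at 537 CPM (520 to 555). Top genes were taken over all cells of a cluster. Neutrophil markers, S100a8 and S100a9 among them, summed to 0.079 CPM in injured EpA cells. They summed to 11179 CPM in uninjured kept cells outside EpA, 4 of which lay in cluster 9. S100a8 and S100a9 therefore do not describe its injured EpA cells. Clusters 5, 11 and 9 kept their order for the 22 other Cfap genes, at 1634, 433 and 219 CPM. Cfap20, Cfap36 and Cfap97 summed there to 432, 317 and 318 CPM. The injured EpA cells of clusters 5, 11 and 9 had median depths of 19496, 29995 and 54017 UMIs. Their Cfap UMIs numbered 11268 in 246 cells, 5862 in 222 cells and 3591 in 119 cells. The CPM order of the clusters is therefore not their order in UMIs per cell.

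**Figure D5:**
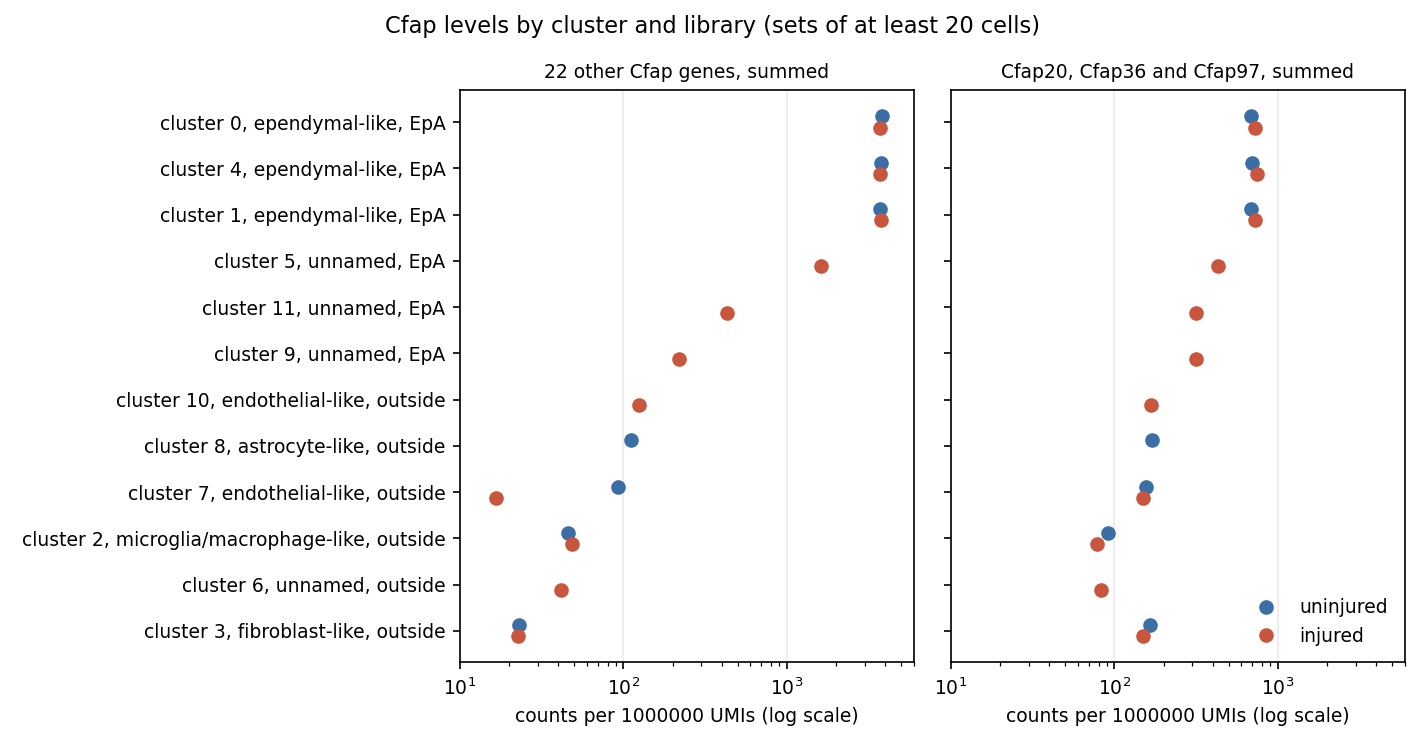
Summed level of 22 Cfap genes (left) and of Cfap20, Cfap36 and Cfap97 (right), in counts per 1000000 UMIs on a log axis, for each cluster and library with at least 20 cells (blue uninjured, red injured). EpA clusters 0, 1 and 4 coincide in both libraries, clusters 5, 11 and 9 step down to 219 on the left but only to 317 on the right, and cells outside EpA are lowest. Depth per cell differs among the sets, so these levels do not order them by UMIs per cell.

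Kept cells outside the EpA set held few Cfap transcripts. They stood at 252 CPM (225 to 281) in the uninjured and 279 CPM (267 to 292) in the injured library, so the EpA level was 17.5-fold higher (15.7 to 19.6) and 6.30-fold higher (6.02 to 6.60). Without barcodes found in both libraries the second value was 6.69. In the uninjured library 24 of 25 members were at least 2-fold higher in EpA cells, and in the injured library 20 of the 21 that reached a mean of 5 CPM, against 19.3% of all genes in either library. The exception both times was Cfap97, at 39.8 CPM outside and 58.3 CPM in EpA cells of the uninjured library, and at 28.0 and 45.7 CPM in the injured one. The sources used here do not say how EpA cells were chosen, and a choice that used cilium genes would itself separate the sets.

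What was found outside was mostly Cfap20, Cfap36 and Cfap97. The 3 made up 58.5% of the uninjured and 57.4% of the injured Cfap UMIs found there. Cfap20 was at 67.1 and 63.6 CPM outside, 18.8% and 37.7% of its EpA level, and Cfap36 at 40.6 and 68.6 CPM, 14.8% and 32.0%. Cfap57 had the fourth highest outside share in the uninjured library, 8.33% from 6 UMIs. Cfap126, the most abundant in EpA cells, was at 9.36 and 15.2 CPM outside, 1.58% and 6.73%. The other 22 genes summed to 105 and 119 CPM. Cfap73 and Cfap58 had 0 UMIs outside in the uninjured library and Cfap99 had 0 in the injured one.

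Without thinning, 96 of 156 uninjured and 170 of 224 injured cells outside EpA held at least 1 Cfap UMI, and the UMIs were unevenly spread. The 10 cells with the most held 50.2% of the 323 uninjured and 42.0% of the 1945 injured Cfap UMIs. At 2000 UMIs a cell outside EpA had a median of 0 Cfap genes in both libraries. At least 1 was seen in 34.7% of 121 (26.3 to 43.9) and 33.2% of 205 (26.8 to 40.1) such cells, and at least 3 in 1.65% and 3.90%. Microglia or macrophage-like cells, which carry no motile cilia, showed at least 1 in 16.7% of 30 (5.64 to 34.7) and 19.2% of 26 (6.55 to 39.4), with median depths of 7171.5 and 21186.5 UMIs before thinning. A share at or near that level cannot be told from free RNA, though the level does not measure free RNA alone. Without thinning, Cfap20, Cfap36 and Cfap97 gave 22 of 33 uninjured and 58 of 94 injured Cfap UMIs of these microglia or macrophage-like cells. Endothelial-like cells were at 35.6% of 45 (21.9 to 51.2) and 36.6% of 112 (27.7 to 46.2), with median depths of 8919 and 25504.5 UMIs and intervals that overlap the microglial ones.

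By cluster, the 22 other Cfap genes stood at 45.5 and 48.8 CPM in microglia or macrophage-like cells of the uninjured and injured library and at 22.9 and 22.6 CPM in fibroblast-like cells. The other axoneme genes were at 95.2 and 149 CPM in the first and 172 and 117 CPM in the second. Cfap20, Cfap36 and Cfap97 summed to 91.1 and 78.6 CPM in microglia or macrophage-like cells and to 166 and 151 CPM in fibroblast-like cells. Endothelial-like cluster 10, with 82 injured cells the most numerous outside set, held 168 CPM of the 3 genes and 125 CPM of the other 22. Endothelial-like cluster 7 held 156 and 149 CPM of the 3 genes, and 92.6 and 16.6 CPM of the other 22. Single cells weigh on these sums. Unthinned endothelial-like cells outside EpA had a median of 1 (uninjured) and 2 (injured) Cfap genes, but the largest number in 1 cell was 19 and 24. Astrocyte-like cells of the uninjured library, 30 in number, held 171 CPM of the 3 and 111 CPM of the 22. The 7 injured astrocyte-like cells held 192 and 31.9 CPM. Across the named sets of at least 20 cells the 3 genes ranged from 78.6 to 171 CPM, against 689 and 428 CPM in EpA cells, and the 22 from 16.6 to 125 CPM, against 3731 and 1330 CPM.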

How the data were processed

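The tools named in the submitters' processing notes are Cell Ranger 3.0.1 and Seurat, with build mm10. The sources used here do not give the gene annotation or the rule for EpA cells. The authors deposited raw UMI counts by gene and cell: the values are whole numbers with totals that vary among cells. Each library's table lists genes seen in at least 3 cells; tables of kept and EpA cells gave the cell sets, and the kept table was used only for its cells.

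The members, roles, gene lists, markers and size rule were chosen with earlier results of these data known. All members were to be named, with full values for the 10 most abundant and for extreme ratios. UMIs were summed over cells and scaled to CPM, and log2 ratios took 0.5 added counts. Levels carry exact Poisson, ratios exact conditional binomial and shares Clopper-Pearson intervals. A gene was called by size, at least 2-fold with a mean of 5 CPM or more. Cells were thinned to 2000 UMIs for per-cell values. Clusters came from scanpy 1.11.5 (2000 variable genes, 20 components, 15 neighbours, Leiden resolution 0.5) and were named from at least 3 markers, with 1 or more among the top 10 genes by fold. A gene among those with the lowest correlation to the Cfap sum is not reported here. The calculation was tested on simulated data. No doublet caller was run; 1 alternative left out the 5% of barcodes with the most UMIs. Other alternatives covered scaling (edgeR 4.0.16 TMM factors, no test), cell weights, thinning, filters and cell sets.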

Additional observations from a re-analysis of the deposited data

Results flagged for a closer look

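Cfap54, Cfap45, Cfap36 and Cfap46 were lower in injured EpA cells but higher in injured cells outside EpA, and the difference between these directions was not tested. The ratio of injured over uninjured was 0.407 in EpA cells and 2.14 (1.04 to 5.10) outside for Cfap54. It was 0.413 and 2.76 (1.29 to 7.03) for Cfap45. For Cfap36 it was 0.783 and 1.69 (1.27 to 2.30). For Cfap46 it was 0.341 and 8.09 (1.38 to 327), the latter resting on 1 uninjured UMI. Outside EpA the libraries hold different cell types, with 5 uninjured and 82 injured cells of endothelial-like cluster 10, and 5 uninjured and 15 injured outside cells fell in clusters mostly of EpA cells. The latter held 4 of 8 uninjured and 33 of 93 injured outside UMIs of Cfap54, and 1 of 1 and 19 of 44 of Cfap46. Without them the outside ratio was 2.66 (0.985 to 10.1) for Cfap54, 2.48 (1.09 to 6.95) for Cfap45 and 1.51 (1.12 to 2.06) for Cfap36, and Cfap46 had 0 uninjured and 25 injured UMIs.

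Barcodes that the authors did not keep also held Cfap transcripts. The 165 uninjured ones stood at 3819 CPM (3664 to 3980), below the EpA level of 4420 CPM (4373 to 4467). The 338 injured ones stood at 1746 CPM (1677 to 1818), near the EpA level of 1759 CPM. The deepest injured one held 263269 of the 1357122 UMIs of that set. In the uninjured and injured barcodes, median depths were 2272 and 2350 UMIs, and mitochondrially encoded UMIs made up a median of 0.689% and 0.0933%.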

How the results depend on the processing

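With 1 library a condition, no value carries an error between animals, and depth limits Cfap58, Cfap99, Cfap221 and Cfap73, with 103, 130, 239 and 254 uninjured UMIs. No paired analysis was possible because each condition has 1 library. The count of 2-fold lower members was 18 to 23 except with other cell weights, when it was 8 (cells alike), 11 (thinned) and 5 (UMIs per cell). Those 3 settings gave median log2 ratios of −0.83, −0.93 and −0.67, and log2 ratios of the family sum of −0.77, −0.76 and −0.47, in place of −1.53 and −1.33. The family sum was at −1.41 without mitochondrial genes, −1.26 with TMM and −1.40 over all deposited barcodes. Median and sum were −1.83 and −1.60 in cells of at least 1000 UMIs and under 10% mitochondrial UMIs, −1.29 and −1.16 without the deepest 5% of barcodes, and −1.16 and −1.02 without dividing cells.

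The EpA to outside ratio of the uninjured library, 17.5, was 19.8 with TMM, 29.6 as UMIs per cell, 23.4 in cells passing that quality filter and 19.9 without outside cells of clusters mostly of EpA cells. That of the injured library, 6.30, was 5.83 with TMM, 9.19 with cells alike, 9.27 thinned, 5.10 as UMIs per cell, 5.84 in filtered cells, 7.73 without the deepest barcodes, 6.69 without shared barcodes and 7.30 without those outside cells. The last 2 settings and the other dividing values were chosen after seeing the data.

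At least 3 Cfap genes were seen in 99.8% of uninjured and 78.4% of injured EpA cells at 5000 UMIs, in 98.6% of injured cells unthinned and in 51.5% of filtered ones. The variance ratio was 1.22 (uninjured) and 5.36 (injured) at 5000 UMIs, 4.01 and 6.15 unthinned and 1.23 in filtered uninjured cells. Injured cells in and below the axoneme range were at 4323 and 870 CPM with the 10th percentile, 4052 and 714 CPM with the 1st, and 4386 and 865 CPM at 5000 UMIs. The cause of these shifts was not tested.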
